A study of Mus musculus with 5 samples.

Results

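The potassium channel genes were the rows of the deposited table whose symbol has the form Kcn, letters, number and whose normalized value averaged at least 10 over the 5 libraries. Of the 92 rows with such a symbol, 40 met the minimum, out of 41128 genes in the table and 14989 genes with a mean of at least 10. The mean over all libraries chose the members, so their presence is not a result. Of the remaining rows, 18 were at 0 in every library and 34 lay above 0 but under the minimum. The members nearest the limit were Kcnab3, Kcnmb4 and Kcnh1, with means of 10.6, 10.7 and 10.8 normalized reads. Just outside it was Kcnip4 at 9.47. Some members passed through 1 region. Kcnab3, Kcnmb4, Kcnn3, Kcnh7, Kcnh1, Kcnk6 and Kcnk2, 7 genes, averaged under 10 in the remote libraries, and Kcna1, Kcnj13 and Kcnk7, 3 genes, did so in the border zone libraries, so counts over the members are given as descriptions.

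Cardiomyocyte nuclei came from FVB mice aged 8 weeks whose left anterior descending coronary artery had been tied off permanently 7 days earlier, so every group carried an infarct. The border zone group came from mice 32, 34 and 40, while remote myocardium was taken from mice 40 and 43, so 4 animals were used and mouse 40 gave both regions. Tissue was microdissected and snap-frozen, and nuclei were stained for PCM-1, a protein that surrounds cardiomyocyte nuclei, and sorted. Total nuclear RNA was made into cDNA from 500 pg. No transgene or drug is given in the labels, and no uninjured heart was among the samples.

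Potassium channels carry the outward currents that end the cardiac action potential and hold the resting membrane potential. Kv4 channels pass the fast transient outward current, delayed rectifiers repolarize later, inward rectifiers of the Kir2 type set the resting potential, and two-pore channels give a background leak. In adult mouse ventricle the transient outward current dominates early repolarization, whereas larger mammals rely more on the currents of Kcnh2 and of Kcnq1 with Kcne1. Pore subunits assemble with small auxiliary proteins and with silent subunits that form no channel of their own.

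The reads per library ran from 11324539 to 25014205, with the 3 border zone libraries the deepest, yet 17567 to 20634 genes were detected in the border zone against 23033 and 22386 in the remote libraries. All 8 cardiomyocyte markers, among them Myh6, Ttn, Tnnt2 and Ryr2, were present in every library. Their sum was higher in all border zone libraries, at 6576700, 3434810 and 1915940 normalized reads in mice 32, 34 and 40, than in remote mice 40 and 43, at 1560120 and 1043520. Ttn made up most of that sum in every library. Changes were positive for 7 of the 8, with a median log2 change 1.32 above that of all genes tested. The groups overlapped for Myh6 and Myh7, whose log2 changes within mouse 40 were -0.32 and -0.11. Summed over 8 genes each, fibroblast markers reached 3386 to 5142 in the border zone and 1975 and 2761 in the remote libraries, and endothelial markers 173 to 663 and 375 and 508. The fibroblast list was mixed, with 6 positive and 2 negative changes. Col1a1 was its highest gene in every library, whereas Dcn was lower in the border zone, at 18.8 to 27.1 against 51.3 and 192. Macrophage markers summed to 127 to 272 in the border zone and 247 and 343 in the remote libraries over 7 genes found. Mural cell markers summed to 7604 to 14656 and to 4957 and 5977, and most of that was Cspg4 and Abcc9. Schwann cell and neuron markers summed to 124 to 412 in the border zone and 119 and 121 in the remote libraries, with 6 of 8 at 0 in at least 1 library. Lymphocyte markers summed to 28.2 to 103 and to 24.9 and 16.1, with 5 of 6 at 0 in at least 1 library. Of the 5 atrial markers, Sln and Myl7 were at 0 in all libraries, but the list was not absent. It summed to 314 to 543 in the border zone and 266 and 291 in the remote libraries. Myl4 stood at 19.0, 3.69 and 32.1 in border zone mice 32, 34 and 40 and at 3.77 and 62.9 in remote mice 40 and 43. Of the 3 atrial markers tested, 1 had a positive and 2 a negative change. Single markers moved with the regions. Pln was the 1 cardiomyocyte marker with a negative change, at 341, 623 and 1938 in the border zone and 3390 and 6271 in the remote libraries. The authors' deposited table called Cspg4 (5285 to 11243 against 1750 and 299.7) higher and Mrc1 (1.56 to 4.75 against 41.5 and 54.1) lower. The part of these markers in the results below was not tested. In such bulk libraries, fewer nuclei of a type and less RNA per nucleus cannot be told apart.

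Between border zone and remote nuclei, the authors' deposited table called 4 members at adjusted p under 0.05, among them Kcnk2 as higher and Kcnv2 and Kcnj13 as lower in the border zone. The border zone and remote libraries did not overlap for Kcnv2 and Kcnj13, and did so for Kcnk2. Values below are normalized reads unless another scale is named. Of all genes with an adjusted p in the authors' deposited table, 5.44% were called, 3.46% higher and 1.98% lower. That background also holds genes under the mean of 10 that the members had to reach. Among the 14981 genes that reached it and had an adjusted p, 574 were called higher and 320 lower. Kcnk2 averaged under 10 in the remote libraries and Kcnj13 in the border zone libraries, so both passed that minimum through 1 region. The 4 of 40 members rested on few genes and are not read as an excess. The limma test on log2(value + 1), adjusted by the Benjamini-Hochberg method over all 14989 genes, called 0 members and 0% of all genes, and the smallest adjusted p of a member was 0.140. Without adjustment, 3 members were higher and 2 lower at a limma p under 0.05, or 12.5%, against 18.1% of all genes (10.2% higher and 7.87% lower). edgeR on recovered reads called 0 members and 0 of all genes as well. At its unadjusted p under 0.05 on those reads, 4 members were higher and 2 lower, beside 1417 higher and 977 lower of 14989 genes. DESeq2 on those reads gave the same 4 genes, with the same log2 changes, and the same 5.44% of all genes as the authors' deposited table. It thus repeats that comparison and is no separate support for it.

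The set of called genes changed with the libraries used in DESeq2, a check chosen after the data had been seen. With border zone mouse 32 left out, Kcnt2 passed as higher and Kcnv2 as lower (3.32% of all genes passed). With border zone mouse 34 left out, Kcnk2 and Kcnn3 were higher and Kcnj13 and Kcnv2 lower (2.92%). Without border zone mouse 40, 7 members were called, among them Kcnk2 and Kcnk3 as higher and Kcnj13, Kcnk7 and Kcnv2 as lower, but 16.2% of all genes were called too. Without remote mouse 40, 2 members were called, among them Kcnv2 as lower (4.06%), and without remote mouse 43 there were 0 (0.279%). With mice 40 and 43 only, Kcnn3 was called higher and Kcnj13 and Kcnv2 lower (2.15%).

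The groups' libraries did not overlap for 6 members that were higher in the border zone and 5 that were lower, or 27.5% of the members, against 39.2% of all genes tested (18.9% higher and 20.3% lower). Changes were positive for 23 members and negative for 17. Their median log2 change was 0.36, which lay 0.57 above the median of all genes tested, -0.21. That difference was 0.08 without border zone mouse 32 and -0.13 with the libraries of mice 40 and 43 only, and it was 0.13 by edgeR and 0.14 by DESeq2. With total-count scaling the median of all genes moved by -1.37, and 15 of the 23 positive changes turned negative. Directions below therefore refer to the deposited normalization, and those that turned are named. Voltage-gated sodium channel genes, 9 tested, had 3 without overlap higher and 1 lower, and the authors' deposited table called 2 of them higher. Voltage-gated calcium channel genes, 14 tested, had 5 without overlap higher and 2 lower, and 1 was called, as higher, in the authors' deposited table.

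**Figure D1:**
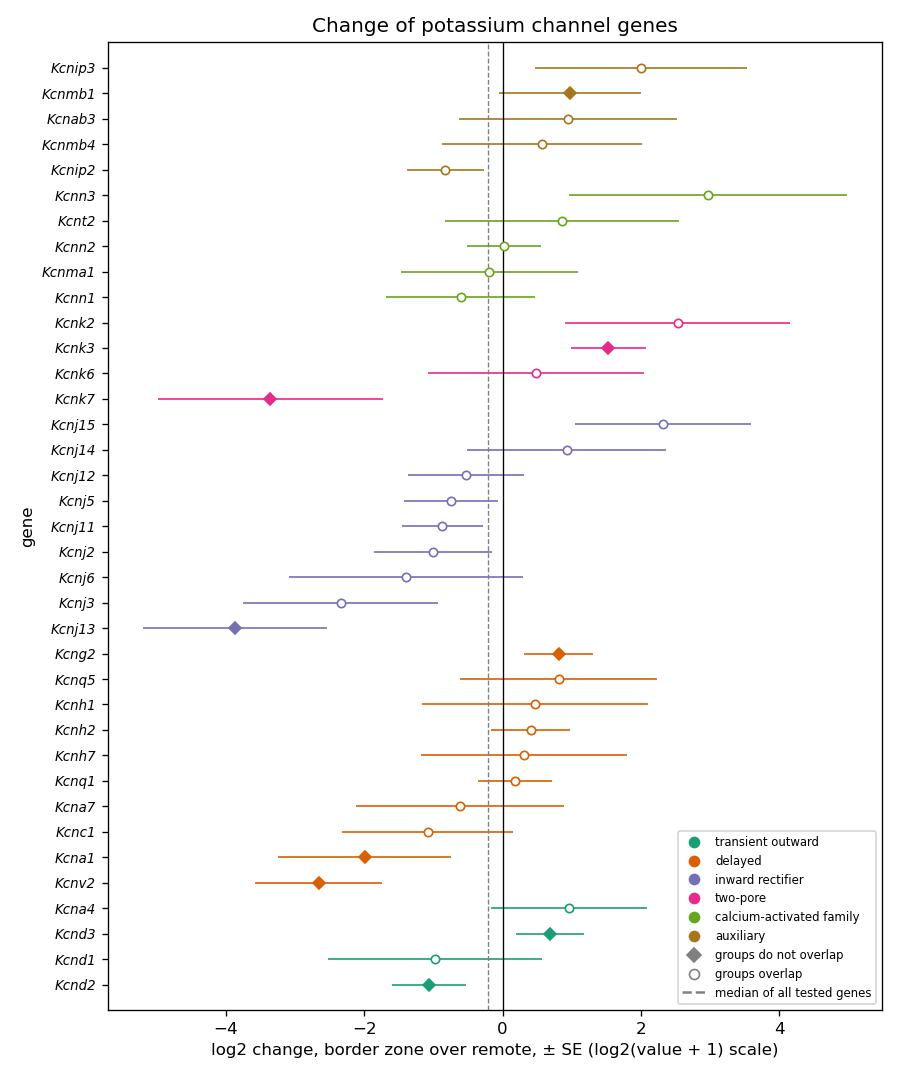
Log2 change of border zone over remote, with its SE, for 37 of the 40 potassium channel genes, grouped by current and drawn as a filled diamond where the groups' libraries did not overlap (3 border zone libraries, 2 remote libraries). Kcnj13 and Kcnk7 lie farthest to the left at -3.87 and -3.36, and 7 of the 9 inward rectifier genes lie below 0.

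Levels were compared between genes per kilobase of the longest transcript. On that scale the leading members by mean were Kcnk3 (517 normalized reads per kilobase), Kcnip2 (471), Kcng2 (353), Kcnh2 (259.7) and Kcnq1 (198). Kcnk3 held 25.0% and 25.9% of the summed level of all 40 members in border zone mice 32 and 34, but 10.9% in border zone mouse 40 and 9.52% and 6.56% in remote mice 40 and 43. Kcnip2 held 9.30%, 6.01% and 17.5% in border zone mice 32, 34 and 40, and 14.6% and 30.0% in remote mice 40 and 43. It was the highest member in both libraries of mouse 40 and in remote mouse 43, and Kcnk3 was the highest in the other two. A factor applied to a whole library leaves these shares as they are.

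By current, two-pore genes made up 27.3%, 26.6% and 11.5% of the summed level per kilobase in border zone mice 32, 34 and 40, against 10.7% and 7.65% in remote mice 40 and 43. The border zone library of mouse 40 lay next to the remote library of the same animal. Inward rectifier genes made up 10.3%, 7.65% and 15.5% in the border zone and 20.1% and 22.8% in the remote libraries. Both currents were without overlap between the groups, in opposite directions. Kcnk3 alone held most of the two-pore share in every library, and of the 9 inward rectifier genes only Kcnj13 was itself without overlap. Shares are parts of 1 total, so a higher share of 1 current lowers those of others. Delayed rectifier genes made up 37.7%, 43.0% and 41.0% in the border zone and 39.0% and 23.2% in the remote libraries, which overlapped. The shares of transient outward genes ran from 6.77% to 9.64% over the 5 libraries, and those of the calcium-activated family from 5.45% to 7.49%.

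**Figure D2:**
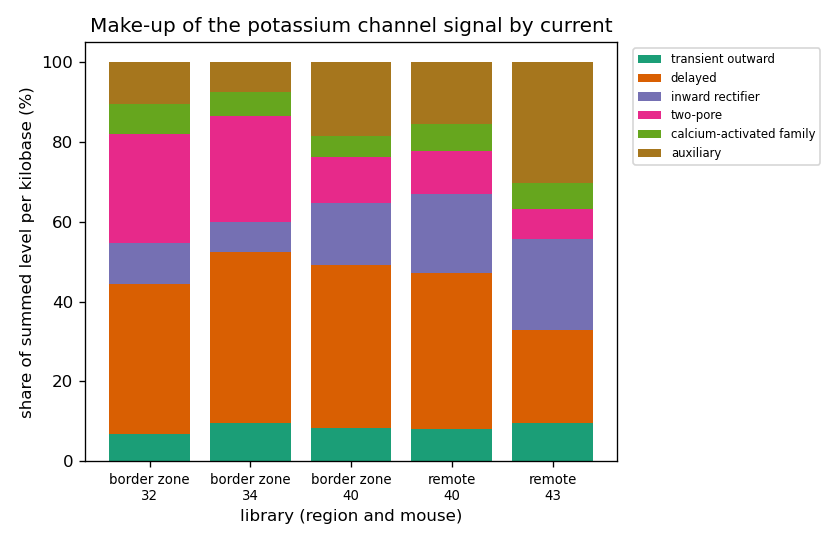
Share of the summed level per kilobase of the 40 genes held by each current, in percent, with 1 bar per library. The two-pore share is 27.3% and 26.6% in border zone mice 32 and 34 and 7.65% to 11.5% in the other libraries, and the inward rectifier share is 20.1% and 22.8% in the remote libraries.

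Transient outward current. The 4 genes split by subunit, with Kcnd2 lower and Kcnd3 higher in the border zone. Kcnd2, the Kv4.2 pore subunit, stood at 255, 279 and 429 in border zone mice 32, 34 and 40 and at 552 and 774 in remote mice 40 and 43. All 3 border zone libraries lay below both remote ones, with the log2 change at -1.06 ± 0.54 (limma adjusted p = 0.314) overall and -0.36 within mouse 40. Kcnd3, the Kv4.3 pore subunit, stood at 1525, 1548 and 814 in the border zone and at 741 and 805 in the remote libraries. Those groups did not overlap either, although border zone mouse 40 exceeded remote mouse 43 by little, and the log2 change of 0.69 ± 0.49 (limma adjusted p = 0.471) turned to -0.74 with total-count scaling.

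The ratio of Kcnd3 to Kcnd2 within a library, which a factor for the whole library leaves as it is, was 4.29, 3.98 and 1.36 in border zone mice 32, 34 and 40 and 0.965 and 0.747 in remote mice 40 and 43, taken per kilobase. Per kilobase, Kcnd3 thus exceeded Kcnd2 in every border zone library and lay below it in both remote ones. Without division by length, Kcnd3 was the higher in remote mice 40 and 43 too, at 741 and 805 against 552 and 774. Which gene was higher in the remote libraries therefore depends on the transcript length used. The ratio of Kcnd3 to Kcnd2 is 1 of 9 chosen after the values had been seen. Of these 9, 5 were without overlap, so it is given with no test. Kcna4, the Kv1.4 pore subunit, stood at 23.8, 50.5 and 269.9 in the border zone and at 55.9 and 21.9 in the remote libraries, so the border zone library of mouse 40 alone was high. Its log2 change was 0.96 ± 1.12 (limma adjusted p = 0.668) and turned to -0.42 with total-count scaling. Kcnd1, a further Kv4 subunit, ran from 1.58 to 70.1 over the border zone libraries, a range that held both remote values.

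The Kv4 channel depends on Kcnip2, the KChIP2 calcium-binding subunit that brings Kv4 proteins to the membrane. Kcnip2 stood at 1144, 584 and 1679.7 in border zone mice 32, 34 and 40 and at 1285 and 2644 in remote mice 40 and 43. The groups overlapped, since border zone mouse 40 exceeded the remote library of the same animal, and the log2 change was -0.83 ± 0.56 (limma adjusted p = 0.447). Its ratio to Kcnd2 per kilobase, 3.46 to 7.42 in the border zone against 3.85 and 5.65, overlapped too. The window from 250 bases before to 50 bases after the start is shown for the Kv4 pair whose ratio differed (RefSeq, GRCm38.p6, 5′ to 3′). For Kcnd2 it is chr6:21215096-21215395, plus strand, and for Kcnd3 chr3:105451640-105451939, plus strand. Capitals mark the GC box, GGGCGG on either strand, found once in the first and not in the second.
Kcnd2: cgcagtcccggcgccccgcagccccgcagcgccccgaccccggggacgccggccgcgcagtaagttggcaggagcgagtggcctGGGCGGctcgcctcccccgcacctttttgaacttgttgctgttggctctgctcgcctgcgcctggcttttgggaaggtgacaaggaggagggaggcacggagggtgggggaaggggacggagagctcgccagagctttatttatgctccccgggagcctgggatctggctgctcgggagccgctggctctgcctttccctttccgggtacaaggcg
Kcnd3: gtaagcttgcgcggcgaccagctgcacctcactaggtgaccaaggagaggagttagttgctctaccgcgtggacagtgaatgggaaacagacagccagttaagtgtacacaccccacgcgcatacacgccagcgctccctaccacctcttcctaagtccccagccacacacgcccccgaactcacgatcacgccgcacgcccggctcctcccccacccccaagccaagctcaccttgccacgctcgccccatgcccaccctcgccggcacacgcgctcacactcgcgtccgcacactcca
Windows were on file for 26 of the 40 members, 34 windows in all. The GC box was in 52.9% of them and in 35.7% of all 32851 windows of that length.

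**Figure D3:**
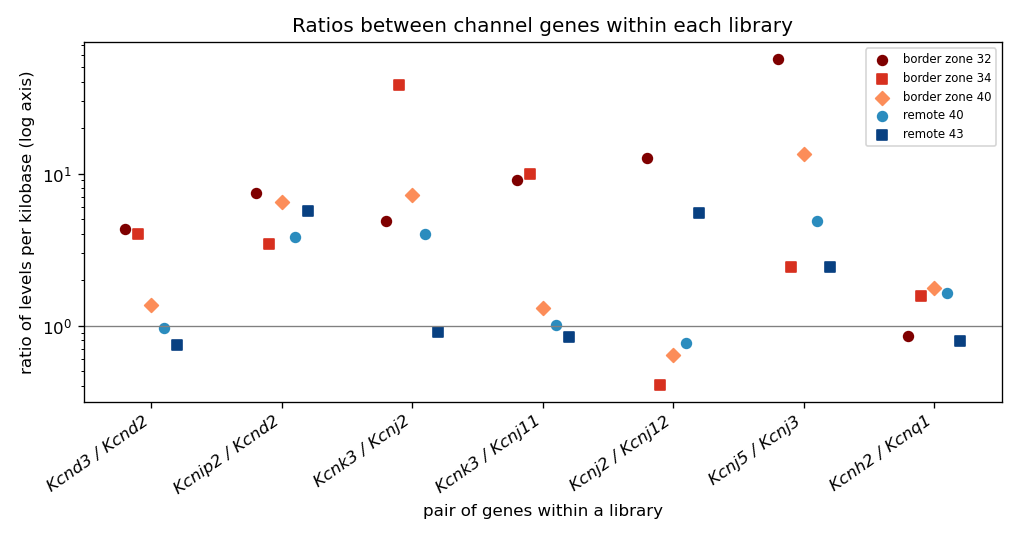
Ratios of levels per kilobase between pairs of potassium channel genes within each library, on a log axis, with 1 point per library. Kcnd3 over Kcnd2, Kcnk3 over Kcnj2 and Kcnk3 over Kcnj11 are higher in each of the 3 border zone libraries than in both remote ones.

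Delayed rectifiers and their silent partners. Of the 13 tested genes, 9 had positive and 4 negative changes, but 6 of the 9 (Kcng2, Kcnh1, Kcnh2, Kcnh7, Kcnq1 and Kcnq5) turned negative with total-count scaling, and the authors' deposited table called Kcnv2 lower. Kcnv2, the Kv8.2 subunit, forms no channel alone and changes the gating of the channels it joins (ENSMUSG00000047298, chromosome 19, 27322588 to 27337179, plus strand). It stood at 46.0, 68.9 and 31.3 in border zone mice 32, 34 and 40 and at 112 and 792 in remote mice 40 and 43. The groups did not overlap, and the remote libraries differed more from each other than the lower of them did from the border zone. The log2 change was -2.66 ± 0.92 by limma (adjusted p = 0.191), and the authors' deposited table gave -3.22 with an adjusted p of 0.016. Within mouse 40 it was -1.80. DESeq2 called Kcnv2 lower without any 1 of the other 4 libraries, but not without remote mouse 43 (log2 -1.21, adjusted p = 0.995).

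Kcng2, the Kv6.2 subunit, also electrically silent alone, was among the highest members. It stood at 937, 1298 and 1325 in the border zone and at 925 and 482 in the remote libraries, where border zone mouse 32 and remote mouse 40 nearly met. The log2 change was 0.81 ± 0.50 (limma adjusted p = 0.402) and turned to -0.62 with total-count scaling.

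Kcnh2, the ERG pore subunit of the rapid delayed rectifier, stood at 1030.2, 935 and 1495 in border zone mice 32, 34 and 40 and at 1552 and 468 in remote mice 40 and 43. Kcnq1, the pore subunit of the slow delayed rectifier, stood at 865, 426 and 609 in the border zone and at 677 and 425 in the remote libraries. For both genes the groups overlapped. The log2 changes were 0.41 ± 0.57 for Kcnh2 and 0.18 ± 0.53 for Kcnq1 (limma adjusted p = 0.725 and 0.874), and both signs turned with total-count scaling and with quantile normalization. The antisense transcript Kcnq1ot1 shares 121 of the 4093 exonic bases of Kcnq1 and was the more abundant, at 3550 to 7374 in the border zone and 10359 and 10253 in the remote libraries. The kit and counting are not stated to use strand, so reads on the bases that such pairs share cannot be told apart. Kcne1, the auxiliary subunit of the slow current, averaged 0.538, with at most 1.46 in any library, and Kcna5, the Kv1.5 pore subunit, was under the minimum too, with 22.7 in remote mouse 43 and at most 1.58 elsewhere.

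Among the remaining delayed rectifier genes, Kcna1, the Kv1.1 pore subunit, stood at 4.75, 13.5 and 10.2 in the border zone and at 40.0 and 35.8 in the remote libraries. It was without overlap, with a log2 change of -1.99 ± 1.25 (limma adjusted p = 0.413). Kcna7, Kcnc1, Kcnh1, Kcnh7 and Kcnq5 had means of 10.8 to 54.2, overlapping groups and log2 changes from -1.08 to 0.81. Kcna10, Kcna2, Kcnc4, Kcnf1, Kcnv1 and the Kv9 subunits Kcns1 and Kcns3 were among the genes at 0 in all libraries.

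**Figure D4:**
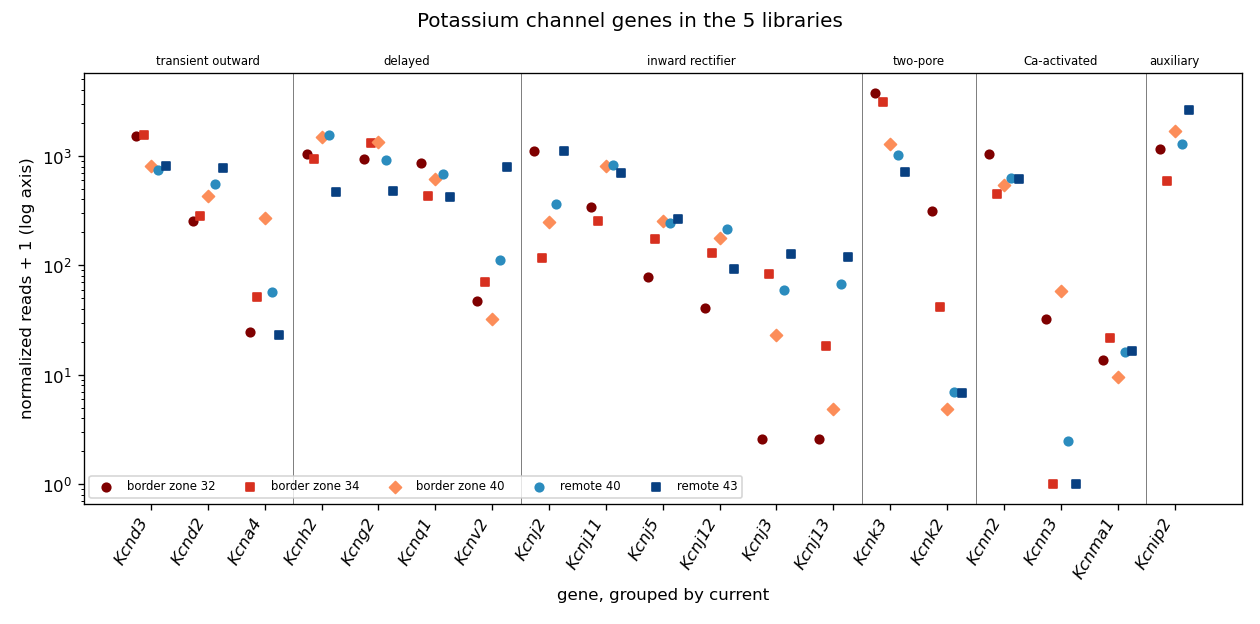
Normalized reads + 1 on a log axis for 19 of the potassium channel genes given in full, with 1 point per library and genes grouped by current. Kcnk3 is higher in all 3 border zone libraries, Kcnv2, Kcnd2 and Kcnj13 are lower, and Kcnk2 is high in border zone mice 32 and 34 and at 3.91 in border zone mouse 40.

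Inward rectifiers. Of the 9 tested genes, 7 had negative and 2 positive changes, and the authors' deposited table called 1 lower. Their median log2 change lay -0.66 from that of all genes tested. Kcnj2, the Kir2.1 pore subunit of the resting current, stood at 1106, 116 and 250.3 in border zone mice 32, 34 and 40 and at 365 and 1116 in remote mice 40 and 43. The spread within each region was as wide as that between them, and the log2 change was -1.0 ± 0.86 (limma adjusted p = 0.547). Kcnj12, the Kir2.2 subunit, stood at 39.6, 129 and 176 in the border zone and at 216 and 91.4 in the remote libraries. Its groups overlapped, with a log2 change of -0.53 ± 0.84 (limma adjusted p = 0.756). Kcnj14, the Kir2.4 subunit, had a log2 change of 0.93 ± 1.44, which turned to -0.41 with total-count scaling.

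Kcnj11, the Kir6.2 pore of the ATP-sensitive channel, stood at 344, 256 and 804 in the border zone and at 833 and 692 in the remote libraries. Border zone mice 32 and 34 were low, border zone mouse 40 lay between the remote libraries, and the log2 change was -0.87 ± 0.59 (limma adjusted p = 0.439). Kcnj8, the Kir6.1 pore found in smooth muscle and pericytes, was under the minimum, at 1.58 in border zone mouse 32, at 9.50 in remote mouse 43 and at 0 in the other libraries. Regulatory subunits of these channels, which are outside the symbol pattern, differed in direction. Abcc9, the SUR2 subunit, stood at 1552, 754 and 1292 in the border zone and at 2327 and 4900.1 in the remote libraries, a log2 change of -1.56 ± 0.52 (limma adjusted p = 0.184). Abcc8, the SUR1 subunit, stood at 4809, 2312 and 2126 in the border zone and at 1626 and 1341 in the remote libraries, a log2 change of 0.96 ± 0.50 (limma adjusted p = 0.323). Neither gene's groups overlapped.

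The G protein-gated pair Kcnj3 and Kcnj5 forms the acetylcholine-activated channel. Kcnj3 stood at 1.58, 82.4 and 21.9 in border zone mice 32, 34 and 40 and at 58.1 and 125 in remote mice 40 and 43, and Kcnj5 at 77.7, 172 and 255 and at 245 and 262. Border zone mouse 32 was the lowest library for both genes. Log2 changes were -2.34 ± 1.41 and -0.74 ± 0.68 (limma adjusted p = 0.394 and 0.577), and the groups overlapped. Kcnj6, a further G protein-gated subunit, had a log2 change of -1.39 ± 1.69 and was at 0 in border zone mouse 32, where a count of 0 allows up to 4.75 normalized reads. Kcnj15, a Kir4.2 transport channel, ran from 31.7 to 76.7 in the border zone and stood at 35.5 and 2.19 in the remote libraries, with a log2 change of 2.32 ± 1.28 (limma adjusted p = 0.351).

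Kcnj13, the Kir7.1 pore subunit known mainly from transporting epithelia (ENSMUSG00000079436, chromosome 1, 87386363 to 87394729, minus strand), stood at 1.58, 17.2 and 3.91 in border zone mice 32, 34 and 40 and at 66.4 and 118 in remote mice 40 and 43. The border zone values rested on 1, 14 and 5 reads and the remote ones on 88 and 162, and the groups were well apart. Its log2 change was -3.87 ± 1.33 by limma (adjusted p = 0.191) and -3.78 within mouse 40, and the authors' deposited table gave -3.61 with an adjusted p of 0.033. Without border zone mouse 32, DESeq2 did not call it (log2 -3.09, adjusted p = 0.0754). Nor did it without remote mouse 40 (log2 -3.97, adjusted p = 0.190) or remote mouse 43 (log2 -3.13, adjusted p = 0.857). With the libraries of mice 40 and 43 only, a single border zone library among them, the DESeq2 log2 change was -4.51. All 1270 exonic bases of Kcnj13 lie within the span of Gigyf2, a gene on the opposite strand, and 623 of them overlap its exons. Gigyf2 stood at 8717, 5664 and 1570.2 in the border zone and at 1757 and 1281 in the remote libraries, a log2 change of 1.51, opposite in sign to that of Kcnj13.

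Two-pore channels. Of the 14 two-pore genes in the family table, 4 were tested, and 3 had positive changes, of which that of Kcnk6 turned negative with total-count scaling. Kcnk3, the TASK-1 acid-sensitive leak channel (ENSMUSG00000049265, chromosome 5, 30588170 to 30625271, plus strand), stood at 3767, 3076 and 1274 in border zone mice 32, 34 and 40 and at 1024 and 708 in remote mice 40 and 43. All border zone libraries exceeded both remote ones, with mice 32 and 34 well above the rest. The log2 change was 1.53 ± 0.54 by limma (adjusted p = 0.202), 0.32 within mouse 40 and 0.10 with total-count scaling. The authors' deposited table gave 1.64 with an adjusted p of 0.12, and DESeq2 called it higher without border zone mouse 40 (log2 1.97, adjusted p = 0.00738). Set against Kcnj11 within each library, the Kcnk3 ratio per kilobase was 9.03, 9.91 and 1.31 in the border zone and 1.01 and 0.843 in the remote libraries, and against Kcnj2 it was 4.86, 38.0 and 7.27 and 4.01 and 0.906. Both ratios were without overlap.

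Kcnk2, the TREK-1 channel that opens with membrane stretch (ENSMUSG00000037624, chromosome 1, 189207930 to 189402273, minus strand), stood at 314, 40.6 and 3.91 in border zone mice 32, 34 and 40 and at 6.04 and 5.85 in remote mice 40 and 43. These values came from 198, 33 and 5 reads in the border zone and 8 in each remote library. Border zone mouse 32 held most of the signal, and border zone mouse 40 lay below both remote libraries. The log2 change was 2.53 ± 1.63 by limma (adjusted p = 0.423) and -0.52 within mouse 40, whereas the authors' deposited table gave 4.32 with an adjusted p of 0.037. Without border zone mouse 32, DESeq2 gave 1.98 (adjusted p = 0.545). It also lost the call without remote mouse 40 (log2 4.33, adjusted p = 0.149) or remote mouse 43 (log2 4.28, adjusted p = 0.496). With the libraries of mice 40 and 43 only it gave -0.56.

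Promoter windows are shown for these called genes, Kcnk2 and Kcnj13. RefSeq lists several starts for Kcnk2, and only its 2 windows with the letters of a transcription factor motif named below are shown. Its window 3 held only a GC box, and its window 4 held none of the motifs searched. The windows are chr1:189402224-189402523, minus strand, and chr1:189344143-189344442, minus strand, for Kcnk2, and chr1:87394680-87394979, minus strand, for Kcnj13 (GRCm38.p6, 5′ to 3′). Capitals mark CATTCC on either strand, the TEAD motif, in the first and the third, and TGANTCA, the AP-1 motif, in the second.
Kcnk2 first start: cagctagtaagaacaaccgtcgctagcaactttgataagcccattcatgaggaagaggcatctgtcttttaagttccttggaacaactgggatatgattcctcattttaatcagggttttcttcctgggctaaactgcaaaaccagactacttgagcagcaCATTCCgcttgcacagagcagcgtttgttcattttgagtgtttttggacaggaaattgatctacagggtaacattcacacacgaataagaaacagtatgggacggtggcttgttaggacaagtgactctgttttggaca
Kcnk2 second start: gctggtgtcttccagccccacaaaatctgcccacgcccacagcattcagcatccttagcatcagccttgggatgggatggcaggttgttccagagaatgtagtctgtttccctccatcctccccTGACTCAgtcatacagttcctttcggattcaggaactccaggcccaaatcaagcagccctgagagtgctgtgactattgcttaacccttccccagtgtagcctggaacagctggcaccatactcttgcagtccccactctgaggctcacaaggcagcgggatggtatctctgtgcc
Kcnj13: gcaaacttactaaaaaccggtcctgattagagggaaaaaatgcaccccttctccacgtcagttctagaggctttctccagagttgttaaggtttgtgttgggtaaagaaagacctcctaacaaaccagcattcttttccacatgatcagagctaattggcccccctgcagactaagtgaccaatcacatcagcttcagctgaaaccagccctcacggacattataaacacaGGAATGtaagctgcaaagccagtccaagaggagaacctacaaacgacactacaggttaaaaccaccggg
CATTCC was in 8.82% of the 34 member windows and in 14.7% of all windows, and TGANTCA in 5.88% and 7.81%. Further motifs searched on both strands were TGACGTCA, the CRE, in 0% of member windows and 1.79% of all, AGATAA, the GATA motif, in 5.88% and 11.2%, and ACANNTGT, the Iroquois motif, in 5.88% and 7.38%. A match describes the letters only.

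**Figure D5:**
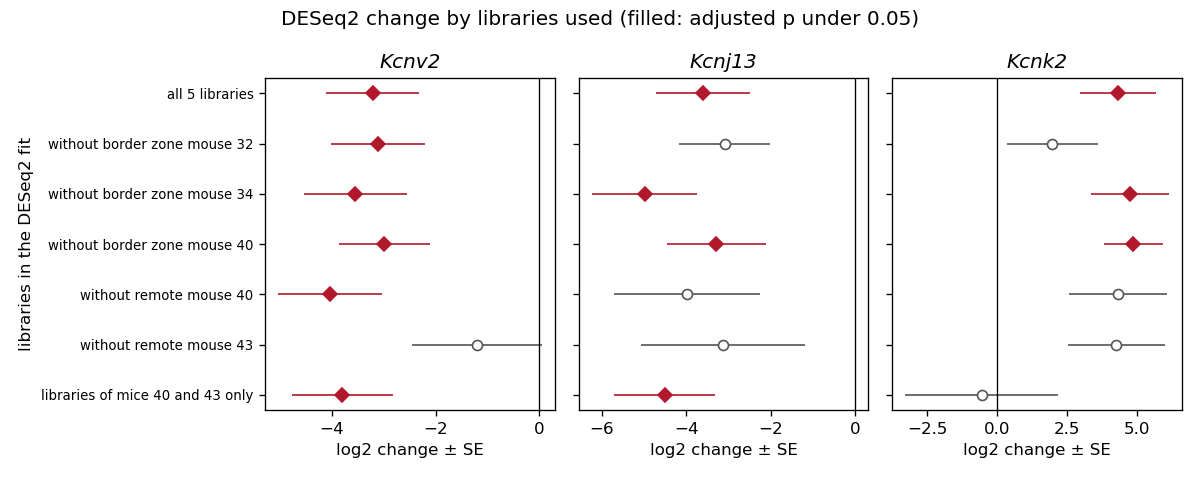
DESeq2 log2 change of border zone over remote, with its SE, for Kcnv2, Kcnj13 and Kcnk2 when each library is left out, filled red where adjusted p was under 0.05. Kcnv2 moves from -3.22 to -1.21 without remote mouse 43, and Kcnk2 from 4.32 to 1.98 without border zone mouse 32.

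Kcnk7, a two-pore subunit with no known current of its own, stood at 1.58, 0 and 14.1 in border zone mice 32, 34 and 40 and at 34.0 and 33.6 in remote mice 40 and 43. Its groups did not overlap, with a log2 change of -3.36 ± 1.63 (limma adjusted p = 0.298). DESeq2 called it lower without border zone mouse 40 (adjusted p = 0.0427). Kcnk6, the TWIK-2 channel, had overlapping groups and a log2 change of 0.49 ± 1.56.

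Calcium-activated channels and their relatives. None of the 5 tested genes was called by limma, edgeR or the authors' deposited table, and none was without overlap. Kcnn2, the SK2 small-conductance channel, stood at 1044, 447 and 537 in border zone mice 32, 34 and 40 and at 625 and 615 in remote mice 40 and 43, a log2 change of 0.02 ± 0.53 (limma adjusted p = 0.985). The border zone values lay on both sides of the remote ones, and the sign turned with total-count scaling and with quantile normalization. Kcnn3, the SK3 channel, stood at 31.7 and 57.1 in border zone mice 32 and 40 and at 0 in border zone mouse 34, against 1.51 and 0 in the remote libraries, from 2 and 0 reads. A count of 0 allows up to 3.69 normalized reads in border zone mouse 34 and 2.19 in remote mouse 43. DESeq2 called Kcnn3 higher without border zone mouse 34 (adjusted p = 0.0334). With the libraries of mice 40 and 43 only, a single border zone library among them, its DESeq2 log2 change was 6.29.

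Kcnma1, the large-conductance channel, stood at 12.7, 20.9 and 8.61 in the border zone and at 15.1 and 15.3 in the remote libraries, so it was low in both regions. Kcnn1, the SK1 channel, had a log2 change of -0.61 ± 1.08. Kcnt2, a sodium-activated relative, stood at 1.58, 299 and 56.3 in the border zone and at 18.1 and 19.0 in the remote libraries, and its highest and lowest values were both in the border zone. The log2 change of 0.86 ± 1.69 turned to -0.34 with total-count scaling. DESeq2 called it higher without border zone mouse 32 (adjusted p = 0.0251).

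Auxiliary subunits. Besides Kcnip2, 4 were tested, with positive changes in all 4, but Kcnab3, Kcnmb1 and Kcnmb4 turned negative with total-count scaling and Kcnip3 without remote mouse 43, and none was called by limma, edgeR or the authors' deposited table. Kcnmb1, the beta subunit of the large-conductance channel known from smooth muscle, stood at 72.9, 39.4 and 35.2 in border zone mice 32, 34 and 40 and at 33.2 and 16.1 in remote mice 40 and 43. The groups did not overlap but came close at mouse 40, and the log2 change of 0.98 ± 1.03 (limma adjusted p = 0.629) turned to -0.41 with total-count scaling. Myh11, a smooth muscle myosin of the mural list, stood at 623, 402 and 68.8 in the border zone and at 77.8 and 38.0 in the remote libraries, but the mural list was mixed. Of its 8 genes 6 had positive and 2 negative changes: Acta2 had a log2 change of 0.26, Abcc9 of -1.56, and Rgs5, a pericyte marker, stood at 1.58, 2.46 and 48.5 in the border zone and at 95.1 and 175 in the remote libraries. The part of these markers in the Kcnmb1 values was not tested. All exonic bases of Kcnmb1 lie within the span of Kcnip1 on the opposite strand, which was at 2.92 to 11.1. Of these bases, 0 overlap its exons, and the part of Kcnip1 in the Kcnmb1 values was not tested. Kcnab3, Kcnip3 and Kcnmb4 had means of 10.6 to 26.6, overlapping groups and log2 changes of 0.57 to 2.0. Of the KCNE subunits, none reached the minimum.

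Partner genes outside the symbol pattern were read from a list of 27 genes, which covers SUR and DPP subunits, scaffolds, Iroquois and other regulators, HCN channels and intracellular potassium channels. Of the 22 tested, limma called 0 at an adjusted p under 0.05 and gave 2 higher and 2 lower at an unadjusted p under 0.05. Irx3 passed as higher and Kcnrg as lower in the authors' deposited table. Irx3, an Iroquois transcription factor of the ventricular conduction system, stood at 414, 292 and 97.8 in border zone mice 32, 34 and 40 and at 55.1 and 27.8 in remote mice 40 and 43, and the authors' deposited table gave a log2 change of 2.69 with an adjusted p of 0.029. Irx5, a further Iroquois factor, stood at 34.9, 33.2 and 59.5 in the border zone and at 12.1 and 16.1 in the remote libraries. Its groups did not overlap, with the log2 change at 1.49 ± 1.09 (limma adjusted p = 0.476). The list of 6 conduction markers was mixed. Of the 4 tested, 2 had positive and 2 negative changes, and 0 were without overlap. Isl1 and Shox2 averaged 4.10 and 3.97 and were not tested.

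Kcnrg, which encodes a soluble relative of the potassium channel assembly domain, stood at 0, 0 and 5.48 in border zone mice 32, 34 and 40 and at 98.1 and 68.0 in remote mice 40 and 43. The authors' deposited table gave a log2 change of -5.31 with an adjusted p of 0.008. All 1825 exonic bases of Kcnrg lie within the span of Dleu2 on the opposite strand, and 0 of them overlap its exons. Dleu2 was lower in the border zone too (log2 -1.77), and its part in the Kcnrg values was not tested. Dpp6, a Kv4 partner known from neurons, averaged 3.84 and was not tested. Over the 22 partner genes the median log2 change lay 0.62 above that of all genes tested, with 9 without overlap higher and 4 lower, against 18.9% and 20.3% of all genes. The partner calls stand against 5.44% of all genes called in the authors' deposited table and 18.1% at an unadjusted limma p under 0.05.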

How the data were processed

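Nuclear RNA of sorted cardiomyocyte nuclei was measured in 3 border zone and 2 remote libraries. In the authors' deposited table this signal is never negative and equals the reads of a gene over 1 size factor for the whole library. STAR, DESeq2 and mm10 stand in the submitters' processing notes, without versions or roles. The counting program, its strand setting and the annotation were not given in the sources used here. Dividing by the value of 1 read gave whole numbers, within 0.01, for 100% of entries above 0, so reads were recovered. For each gene, the authors' deposited comparison holds its log2 fold change. A p-value, raw and adjusted, stands beside it in the deposited file. Transcript lengths came from another deposited table, whose group means were not used.

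Values were tested as log2(value + 1) by limma 3.58.1 under R 4.3.3, using its trend of variance with level, two-sided and Benjamini-Hochberg adjusted over genes with a mean of at least 10, with called meaning adjusted p under 0.05. It was tested on simulated data. edgeR 4.0.16 and DESeq2 1.42.0 were run on recovered reads. Fold changes on the log2(value + 1) scale understate those of low genes. The limits are few libraries, mouse 40 taken as independent in both groups, and p-values that measure only the spread between these libraries. A floor for a count of 0 is 3 reads and covers counting error only.

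Values of every library are given for members called in the authors' deposited table, for members that average at least 100 and whose groups lie apart, and for textbook cardiac channel genes. Kcna1, Kcnd1, Kcnj15, Kcnk7, Kcnmb1 and Kcnt2 were added after their values were seen. Results for some genes that this rule names are not reported here, though counts include them. Members, lists and the 9 ratios were chosen with earlier results of these data known. Coordinates and overlaps are from GENCODE M21, on the assembly of mm10, and promoter windows from RefSeq.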

Additional observations from a re-analysis of the deposited data

How the results depend on the processing

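No paired analysis was possible because only mouse 40 gave both regions, so the groups share fewer than 2 replicate numbers. The DESeq2 fits on fewer libraries were chosen after seeing the data. Fits without a remote mouse, or with mice 40 and 43 only, hold a single library in a region. The spread within that region is then not measured. The limma count of 0 genes called became 902 with DESeq2 on all libraries, 1 with total-count scaling and 1 with quantile normalization, and ran from 0 to 235, the latter without border zone mouse 40, in limma with 1 library left out. DESeq2 called 524 genes without border zone mouse 32, 458 without border zone mouse 34, 2801 without border zone mouse 40, 526 without remote mouse 40, 35 without remote mouse 43 and 328 with mice 40 and 43 only. Among potassium channel genes, 0 were called by limma, 4 by DESeq2 on all libraries, 0 by limma with any 1 library left out, 2, 4, 7, 2 and 0 by DESeq2 without border zone mouse 32, 34 or 40 or remote mouse 40 or 43, and 3 by DESeq2 with mice 40 and 43 only. Their median log2 change minus that of all genes, 0.57, was 0.13 with edgeR, 0.14 with DESeq2, 0.081 to 0.79 with 1 library left out, and -0.13 (limma) and -0.15 (DESeq2) with mice 40 and 43 only. The count of 11 genes without overlap became 7 with a mean of at least 50 and 20 with total-count scaling. It was 16 to 22 with 1 library left out and 31 with mice 40 and 43 only. Fewer libraries make overlap rarer. The share of all genes without overlap was not computed in these settings, so the counts are not read as a result about the members.

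Relative to the median of all genes, the log2 change of these genes turned sign in at least 1 alternative. Kcnma1, at 0.021, became -0.18 by edgeR, -0.18 by DESeq2, -0.78 with mice 40 and 43 only, -0.77 by DESeq2 with mice 40 and 43 only, -0.34 to 0.36 by limma with 1 library left out, -0.069 by DESeq2 without border zone mouse 32, -0.55 by DESeq2 without border zone mouse 34, -0.26 by DESeq2 without remote mouse 40 and -0.23 by DESeq2 without remote mouse 43. Kcnn2, at 0.23, became -0.044 at a mean of at least 50, -0.38 with quantile normalization, -0.23 with mice 40 and 43 only, -0.16 by DESeq2 with mice 40 and 43 only, -0.24 to 0.43 by limma with 1 library left out, -0.37 by DESeq2 without border zone mouse 32 and -0.017 by DESeq2 without remote mouse 43. Kcnh2, at 0.62, became -0.049 with quantile normalization, -0.26 to 1.49 by limma with 1 library left out and -0.55 by DESeq2 without remote mouse 43. Kcnq1, at 0.39, became -0.16 with quantile normalization, -0.13 by DESeq2 without border zone mouse 32 and -0.22 by DESeq2 without remote mouse 43. Kcnj11, at -0.66, became 0.061 with mice 40 and 43 only and 0.12 by DESeq2 with mice 40 and 43 only. Kcnj12, at -0.32, became 0.30 with mice 40 and 43 only, 0.24 by DESeq2 with mice 40 and 43 only, -0.95 to 0.30 by limma with 1 library left out and 0.21 by DESeq2 without remote mouse 40. Kcnj2, at -0.79, became 0.29 by DESeq2 without remote mouse 43. Kcnj5, at -0.53, became 0.059 by DESeq2 with mice 40 and 43 only. Kcnk2, at 2.74, became -0.52 with mice 40 and 43 only and -0.56 by DESeq2 with mice 40 and 43 only.

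Of the other comparisons of a single gene with its alternatives, 343 kept direction and side of the threshold, and 19 passed the threshold only in the alternative. The cause of these changes was not tested. Depth limits low members, such as Kcnj13, Kcnk2, Kcnk7 and Kcnn3, which had 20 reads or fewer in at least 3 libraries, and Kcnab3, Kcnmb4 and Kcnh7, which had so few in all 5.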
